A study of Mus musculus with 2 samples.

Results

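Of the regions that a STARR-seq experiment in activated mouse T helper 1 cells called different between reporter output and input, 1373 lay just upstream of protein-coding genes. They were chosen by position alone, as the listed regions on chromosomes 1 to 19 whose centre was more than 100 and at most 1000 bp upstream of the nearest protein-coding transcription start. Regions whose centre was within 1000 bp of protein-coding starts on both strands were left out. The 1373 regions were taken from 14627 listed on these chromosomes and 14994 in the whole deposited table, and they belonged to 1320 genes. They are called upstream regions here. The other classes were 2238 regions with centres the same distance downstream of a start, 2649 within 100 bp of a start, 720 near starts on both strands, and 7647 over 1000 bp from a start, called distal.

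Both output libraries were labelled as activated Th1 cells and formed 1 group. Each came from primary C57BL/6NJ T cells cultured for 4 days with IL-2, IL-12 p70 and an antibody to IL-4, and was stimulated for 3 days through CD3e (antibody at 0.25 ug/mL) and CD28. IL-2 and IL-12 p70 were given at 10 ng/mL per the labels of replicate 1, the antibody to CD28 at 1 ug/mL and that to IL-4 at 2 ug/mL per those of replicate 2. Each library started from 30 ug of nucleic acid, with fragments of 200 to 400 bp, and the reporter was a transiently transfected episome. The labels name the same donor for both, so nothing shows that they came from separate animals. The authors combined both libraries in 1 table, so depth is unknown and no value per replicate or test between replicates was possible. A table of DNA regions holds no expression values, and the labelled cell type was not checked here.

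In STARR-seq, genomic fragments are placed in a reporter where they can raise or lower the amount of the RNA that carries them. RNA output above DNA input is read as activity, and output below input as reduced reporter RNA. The DNA just upstream of a start holds the proximal promoter, where factors such as SP, NFY, ETS and CREB family proteins bind and work with the core promoter at the start itself. Many mammalian promoters lie in CpG islands, stretches that are rich in G and C and keep CpG dinucleotides lost elsewhere. In Th1 cells, interferon gamma, IL-12 and T cell receptor signals act through STAT, IRF, T-box, NFAT and AP-1 factors.

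For each region the authors gave a signed effect and a p-value adjusted for multiple tests, and every listed region had an adjusted p under 0.01. The scale and sign of the effect are not stated. A positive effect is read here as more output than input. Effects below are those of the authors' deposited table, with no error of their own. Wilson intervals at 95% on shares cover counting error over regions only, and regions are not replicates. No test of a difference between classes was made.

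The sequences below show stretches of the upstream regions with the highest and lowest effects. Each is 150 bases (GRCm38, 5′ to 3′ on the strand of the gene), from the upstream, non-exonic side of the start, with CpG dinucleotides in capitals. The first 4 are from the highest single-copy effects, leaving out Hist2h2aa1 and Gm45844, which had no such stretch outside exons, and Npc1, and lay at chr7:29211638-29211787 (minus strand), chr19:8798638-8798787 (minus strand), chr1:88094675-88094824 (plus strand) and chr17:35164969-35165118 (minus strand).
Catsperg1: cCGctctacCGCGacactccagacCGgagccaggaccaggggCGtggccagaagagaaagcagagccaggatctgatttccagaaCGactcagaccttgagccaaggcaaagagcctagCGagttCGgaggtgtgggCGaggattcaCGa
Polr2g: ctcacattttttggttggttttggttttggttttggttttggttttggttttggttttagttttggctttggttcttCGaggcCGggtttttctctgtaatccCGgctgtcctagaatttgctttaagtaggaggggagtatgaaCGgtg
Ugt1a7c: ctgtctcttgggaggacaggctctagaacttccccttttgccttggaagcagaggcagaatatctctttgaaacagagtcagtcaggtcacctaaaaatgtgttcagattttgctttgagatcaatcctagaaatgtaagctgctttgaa
Prrc2a: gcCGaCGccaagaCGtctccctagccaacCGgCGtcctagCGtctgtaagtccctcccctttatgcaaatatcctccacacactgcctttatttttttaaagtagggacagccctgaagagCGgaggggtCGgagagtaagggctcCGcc
The other 3 are from among the lowest effects, and lay at chr6:122339825-122339974 (minus strand), chr2:122369213-122369362 (minus strand) and chr19:46962025-46962174 (minus strand).
Phc1: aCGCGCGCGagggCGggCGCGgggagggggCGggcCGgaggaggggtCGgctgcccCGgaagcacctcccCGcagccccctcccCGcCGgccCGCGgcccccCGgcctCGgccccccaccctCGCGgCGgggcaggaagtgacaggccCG
Shf: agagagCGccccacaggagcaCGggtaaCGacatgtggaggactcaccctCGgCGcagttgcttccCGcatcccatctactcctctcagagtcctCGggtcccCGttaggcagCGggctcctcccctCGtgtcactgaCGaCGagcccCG
Nt5c2: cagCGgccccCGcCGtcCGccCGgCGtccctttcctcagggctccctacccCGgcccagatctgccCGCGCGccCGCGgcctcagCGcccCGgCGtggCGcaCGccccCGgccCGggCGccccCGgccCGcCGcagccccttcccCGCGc
These windows held 10, 4, 0 and 9 CpG dinucleotides in the high regions of Catsperg1, Polr2g, Ugt1a7c and Prrc2a. They held 22, 13 and 25 in the low regions of Phc1, Shf and Nt5c2. GC content was 42% to 60% in the high windows and 65.3% to 85.3% in the low windows. The whole regions differed less, at 48% to 62.6% GC for the high and 64.9% to 67.7% GC for the low ones.

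A set of short stretches shows upstream matches to consensus sequences of transcription factors, with the match in capitals and 25 bases on each side (GRCm38, strand of the gene). For each of the 6 consensus sequences whose share was highest in positive relative to negative regions, the highest single-copy region with a match outside exons is given. They lay at chr17:35164932-35164989 (minus), chr7:16308631-16308689 (plus), chr17:57031857-57031914 (minus), chr11:58948702-58948758 (plus), chr17:80564059-80564115 (minus) and chr14:56886499-56886556 (plus).
Prrc2a, octamer: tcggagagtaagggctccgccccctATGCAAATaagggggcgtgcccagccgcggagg
Bbc3, IRF: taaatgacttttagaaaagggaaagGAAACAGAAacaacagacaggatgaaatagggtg
Khsrp, HSF: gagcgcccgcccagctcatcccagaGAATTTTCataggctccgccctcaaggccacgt
Hist3h2ba, GATA: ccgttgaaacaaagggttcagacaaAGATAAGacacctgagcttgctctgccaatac
Cdkl4, RUNX: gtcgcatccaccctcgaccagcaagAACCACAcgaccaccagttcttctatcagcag
Zmym2, NFY: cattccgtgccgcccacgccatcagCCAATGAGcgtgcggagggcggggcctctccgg
The stretches ended 35, 927, 335, 162, 225 and 97 bp upstream of the start, in the order printed. The regions' effects were 1.90, 1.81, 1.87, 1.73, 1.72 and 1.89.

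Matches to the IRF consensus GAAANNGAA were also found upstream of interferon-induced genes. These 5 are shown because 10 of the 12 upstream regions of the interferon list held this consensus, and they lay at chr4:156200851-156200909 (minus), chr19:34583349-34583407 (plus), chr11:58214888-58214946 (plus), chr11:58199497-58199555 (plus) and chr6:121245799-121245857 (plus).
Isg15: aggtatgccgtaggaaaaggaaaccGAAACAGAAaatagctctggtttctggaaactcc
Ifit3: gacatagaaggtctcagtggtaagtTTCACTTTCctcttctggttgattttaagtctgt
Irgm2: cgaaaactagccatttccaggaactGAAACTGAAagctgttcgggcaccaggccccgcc
Igtp: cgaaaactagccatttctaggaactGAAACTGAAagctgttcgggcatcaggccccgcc
Usp18: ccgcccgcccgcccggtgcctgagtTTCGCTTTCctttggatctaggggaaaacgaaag
The match was on the gene's own strand in Isg15, Irgm2 and Igtp, and on the opposite strand in Ifit3 and Usp18. The effects of these regions were 1.58 for Isg15, 1.31 for Ifit3, 1.23 for Irgm2, 1.10 for Igtp and 0.78 for Usp18 in the authors' deposited table.

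Most upstream regions were positive. Of the 1373, 965 had a positive and 408 a negative effect, which makes 70.3% positive (67.8% to 72.6%), against 80.6% of all listed regions. The share was 65.2% (63.2% to 67.1%) among downstream regions, 77.9% (76.3% to 79.4%) within 100 bp of a start, 87.9% (85.3% to 90.1%) near starts on both strands and 87.3% (86.5% to 88.0%) among distal regions. The upstream share thus stood above the downstream share and below those of the other classes. Upstream effects ran between -3.60 and 6.40, with a median of 0.70, of 0.80 among positive regions and of -1.26 among negative regions. Downstream regions had medians of 0.78 and -1.18, and distal regions of 0.81 and -0.95.

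Large effects were split differently by direction. An effect over 2 was found in 31 upstream regions (2.26%), against 5.37% of all listed regions, and an effect under -2 in 60 (4.37%), against 1.85% of all listed regions. The shares over 2 and under -2 were 1.56% and 4.02% among downstream regions and 2.08% and 2.53% within 100 bp of a start. Near starts on both strands both were 1.25%, and among distal regions they were 8.57% and 0.59%. Of the 31 with an effect over 2, 26 had at least 1 further copy in the genome (95% identity over at least 240 bp), where a count can join several loci. Multi-copy regions numbered 43 in all, of which 42 were positive, with a median effect of 2.32. Among the 1330 single-copy regions, 69.4% were positive (66.9% to 71.8%) and the median effect was 0.69.

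Most upstream regions reached the start itself. The median distance of the centre was 221 bp and the median width 775 bp, and 967 regions (70.4%) contained the start, with a median of 229 bp past it. The other 406 ended before it, by a median of 268.5 bp. Of regions that contained the start 71.9% were positive (69.0% to 74.6%), with a median effect of 0.73. Of those that ended before it 66.5% were positive (61.8% to 70.9%), with a median effect of 0.62. The regions that ended before the start were also narrower, at a median of 425 bp against 875 bp, and lower in GC, at 61.0% against 63.6%. Regions with the start were positive in 97.6% under 60% GC, 71.8% at 60% to 70% and 15.2% at 70% or more. Those that ended before it were positive in 93.5%, 62.0% and 11.4%. The cause of the difference was not tested. At the edges of the chosen window, 27 of 36 regions centred over 100 and up to 104 bp upstream were positive, as were 16 of 25 centred 97 to 100 bp upstream. At the outer edge the counts were 6 of 7 at 976 to 1000 bp and 7 of 7 at 1001 to 1025 bp.

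Direction changed with distance on each side of the start. Upstream, the positive share was 71.9% at 100 to 200 bp, 65.5% at 200 to 300 bp, 61.9% at 300 to 400 bp, 70.7% at 400 to 500 bp, 71.1% at 500 to 750 bp and 86.2% at 750 to 1000 bp (lower bounds not included). Downstream, at the same distances, it was 73.0%, 64.1%, 54.7%, 51.6%, 53.5% and 70.3%. Both sides thus fell away from the start, and the upstream share was higher again from a shorter distance. The intervals of neighbouring upstream windows overlapped throughout. At 100 to 400 bp the shares were 68.7% upstream and 67.7% downstream, a difference of 0.99 percentage points (-2.62 to 4.54). At 400 to 1000 bp they were 75.2% upstream and 57.0% downstream, a difference of 18.2 points (11.8 to 24.3).

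**Figure D1:**
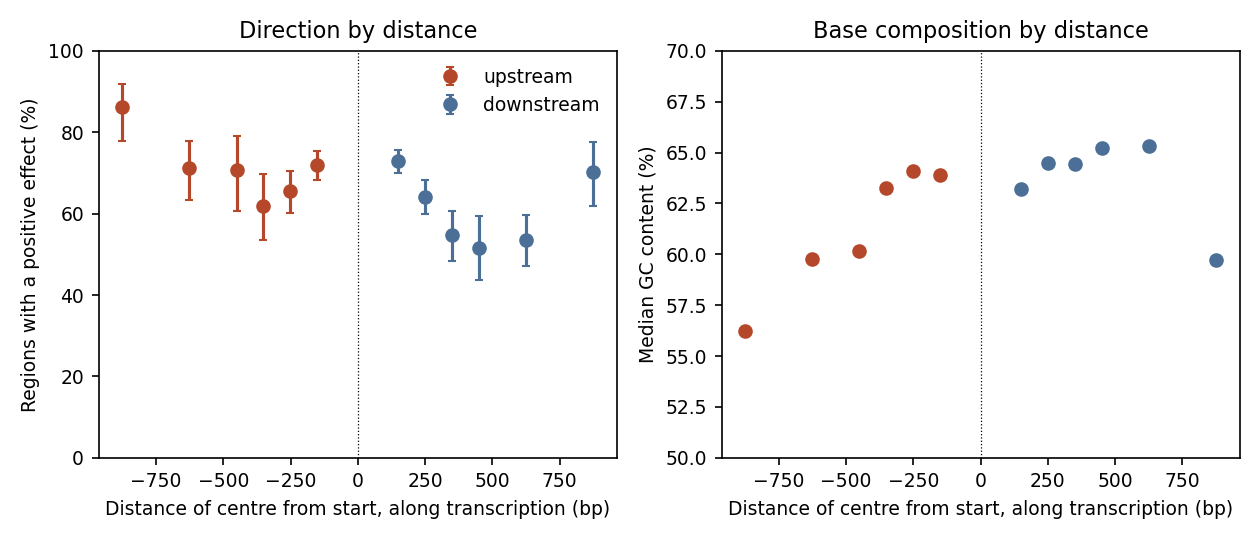
Left, share of regions with a positive effect (%) against the distance of the region's centre from the start along the direction of transcription (bp, upstream negative), with 95% Wilson intervals over regions. Right, median GC content (%) at the same distances. The upstream points run between 61.9% and 86.2% positive and the downstream points between 51.6% and 73.0%, and the lowest GC stands at the outer upstream point, 56.2%.

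Base composition moved with distance in the same windows. Median GC was 59.3% upstream and 64.3% downstream at 400 to 1000 bp, and 63.8% upstream and 63.6% downstream at 100 to 400 bp. With downstream regions weighted to the GC classes of the upstream regions, the difference at 400 to 1000 bp was 5.47 points (0.35 to 10.6), and over all distances 1.84 points (-0.59 to 4.28) in place of 5.09 points (1.95 to 8.18). At 100 to 400 bp the weighted difference was 0.68 points (-2.17 to 3.52). The part of base composition in the difference was not tested further.

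Among upstream regions the positive share was high up to 60% GC and much lower above 65%. It was 89.3% (25 of 28) under 45% GC, 91.5% (54 of 59) at 45% to 50%, 97.7% (126 of 129) at 50% to 55% and 97.0% (254 of 262) at 55% to 60%. Above that it was 83.6% (296 of 354) at 60% to 65%, 54.9% (181 of 330) at 65% to 70%, 17.6% (28 of 159) at 70% to 75% and 1.92% (1 of 52) at 75% or more. The only positive region in the last class was that of Jund, a subunit of AP-1, at 80% GC and an effect of 0.65 over 50 bp. Median GC was 60.3% in positive and 69.4% in negative upstream regions. In downstream regions the shares were 12.2% at 70% to 75% and 4.10% at 75% or more, and in distal regions they were 42.2% (35 of 83) and 29.2% (7 of 24). Negative regions at low GC were few upstream, 3 of 28 under 45%, against 602 of 1542 among distal regions.

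**Figure D2:**
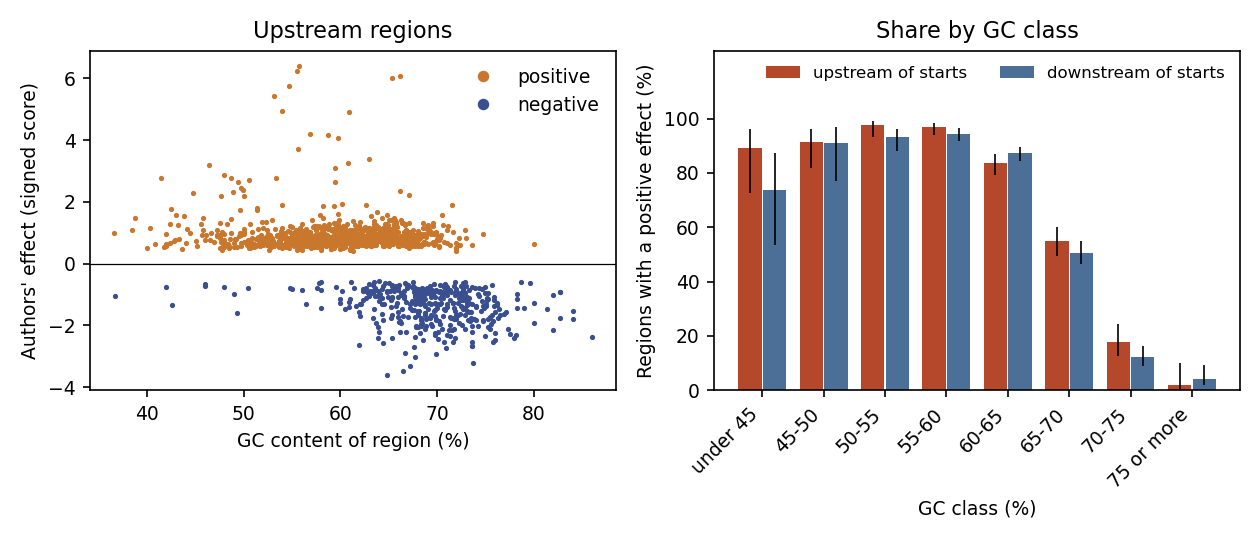
Left, the authors' effect (signed score) against the GC content of each of the 1373 upstream regions. Right, share of regions with a positive effect (%) in 8 GC classes, upstream regions to the left of downstream regions, with 95% Wilson intervals over regions. The upstream share is 97.0% at 55% to 60% GC and 1.92% at 75% or more.

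CpG density gave a like order. The ratio of observed to expected CpG dinucleotides was under 0.2 in 55 upstream regions, of which 53 were positive, and 0.2 to 0.4 in 100, of which 98 were positive. At a ratio of 0.6 to 0.8, 74.2% of 469 were positive, at 0.8 to 1 it was 56.7% of 473, and at 1 or more 36.4% of 99. GC content rose over the same classes, with medians of 62.6%, 66.4% and 70.2%, so the measures are not independent.

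Seen from the genes, the share with a listed upstream region of any sign rose with GC, while the share with a positive one was highest at 65% to 70% GC. Over 18555 protein-coding genes without a start on the opposite strand nearby, 4.96% had a positive and 2.11% a negative upstream region. GC was taken upstream of the outermost start of each gene, while a region at any of its starts was counted. Genes with under 45% GC between 100 and 600 bp upstream had a positive region in 1.29% and a negative region in 0.30%. At 65% to 70% GC 19.1% had a positive and 12.8% a negative region. At 75% or more 5.17% had a positive and 51.7% (60 of 116 genes) a negative region. A gene with no listed region may have been untested or below the authors' threshold, which cannot be told apart here.

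The highest single-copy upstream effect was that of Catsperg1, a subunit of the sperm calcium channel CatSper, at 4.20, centred 218 bp upstream with 56.9% GC (adjusted p 2.85e-14 in the authors' deposited table). Hist2h2aa1, which encodes histone H2A, followed at 3.25 with 60.8% GC. Polr2g, a subunit of RNA polymerase II, had 2.86 with 48% GC, and its region held an ETS and an SP match. Gm45844 had 2.79 with 41.5% GC, at an adjusted p of only 0.0031 in the authors' deposited table. Ugt1a7c, an enzyme that conjugates glucuronic acid, had 2.39 with 49.9% GC. These 5 were the only single-copy regions with an effect over 2.

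The next 5 lay close together. Npc1, which exports cholesterol from lysosomes, had 1.92, Prrc2a, an RNA-binding protein, had 1.90 and Zmym2, a zinc finger protein of chromatin complexes, had 1.89. Khsrp, which binds AU-rich elements in mRNA, had 1.87 and Plrg1, a component of the spliceosome, had 1.85. Of these 10 regions, 7 contained the start, and their median GC was 58.8%. Zmym2 stood apart in composition, at 71.5% GC over 200 bp that ended before the start.

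The lowest effect was that of Phc1, a subunit of Polycomb repressive complex 1, at -3.60, centred 242 bp upstream with 64.9% GC (adjusted p 1.10e-12 in the authors' deposited table). Shf, an SH2 domain adaptor, had -3.49, Gnao1, a G protein alpha subunit of neurons, had -3.22 and Nt5c2, a cytosolic nucleotidase, had -3.02. Rbpms2, an RNA-binding protein of smooth muscle, had -2.93, Slc23a2, a vitamin C transporter, had -2.90 and Pknox1, a homeodomain factor, had -2.73. Snx25, a sorting nexin, had -2.69 and Pds5a, a cohesin regulator, had -2.66. This ranking held single-copy regions that were at most 50% soft-masked. A single-copy region of Phf21a at -3.31, with 67.2% GC, was not in it. The 10 lowest regions of this ranking had 64.9% to 73.7% GC, with a median of 68.8%, and 9 contained the start.

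The highest effects of all were in multi-copy regions. Tagap1 and Fgfr1op, whose regions each had 2 copies, stood at 6.40 and 6.23, with 55.8% and 55.5% GC and the same SP, HSF and NF-kB matches. Gm13277 and Gm13275, each with 14 copies, had 6.08 and 6.01, and Gm2237, with 37 copies, had 5.75. Tuft1, a protein first found in tooth enamel, had 5.43 with 2 copies, and H2-Q6, a nonclassical MHC class I gene, had 4.92 with 3 copies. Hspa1b, an inducible HSP70 chaperone, had 4.08 with 2 copies, and held a match to the HSF consensus and a match to NFY. Which copy gave rise to these effects cannot be told apart.

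Histone and heat shock genes were looked at after these values were seen, so their choice is no independent support. All 6 upstream regions of histone genes were positive, against 70.3% of all upstream regions. Their GC ran between 49.57% and 66.18%. In the GC classes they fell in, 54.85% to 97.67% of upstream regions were positive. Hist2h2aa1 had 3.25, Hist2h2aa2, whose region has 2 copies, had 2.35, Hist3h2ba had 1.73, Hist1h4j had 0.98, Hist1h4a had 0.84 and Hist1h2be had 0.69. Of these, 5 held the NFY consensus, all but Hist1h4j, against 17.6% of all upstream regions. The 5 heat shock and DnaJ genes were Hspa1b at 4.08, Hspa9 at 1.01, Dnajc4 at 0.57, Dnaja1 at 0.57 and Hspb7 at 0.56. Of those, Hspa1b, Hspa9 and Dnaja1 held the HSF consensus, against 13.2% of all upstream regions.

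All 12 upstream regions of the interferon list were positive, with a median effect of 0.94 and a median GC of 52.8%. Upstream regions weighted to the same GC classes were 93.7% positive. Iigp1, an interferon-inducible GTPase whose region has 3 copies, was highest at 1.77, and Isg15, a ubiquitin-like modifier, followed at 1.58. Oasl1, a regulator of Irf7 translation in mouse, had 1.36, and Ifit3, an inhibitor of viral RNA translation and replication whose region has 2 copies, had 1.31. The GTPases Irgm2 and Igtp had 1.23 and 1.10, and Usp18, which removes Isg15 from proteins, had 0.78. Mx2, Gbp5, Irf2 and Irf4 had 0.65, 0.64, 0.63 and 0.60, and Isg20, an exonuclease, was lowest at 0.58. The IRF consensus was found in 10 of the 12 (83.3%), against 13.5% of all upstream regions, and the STAT consensus in 5 (41.7%), also against 13.5%. These consensus shares were not weighted by GC class, and the median GC of all upstream regions was 63.1%. Irf4 and Isg20, the 2 without an IRF match, had the lowest effects.

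T helper regulators had 7 upstream regions, of which 6 were positive, against 62.2% of upstream regions weighted to their GC classes. Stat3 had 1.22, Socs3 had 1.21, and Tbx21, which encodes T-bet, the factor that defines Th1 cells, had 0.64 in a region of 50 bp centred 269 bp upstream. Socs1, an inhibitor of JAK kinases, had regions of 0.62 and 0.50, and Ifngr2, a chain of the interferon gamma receptor, had 0.61. Jak2, a kinase of the IL-12 and interferon gamma receptors, was negative at -2.11, with 75.4% GC, above the other 6, whose GC lay between 55.1% and 72%. The 3 regions of T cell receptor signalling were positive, against a weighted share of 78.7%, with Malt1, a protease of the NF-kB pathway, at 0.93, Zap70, the kinase at the receptor, at 0.74 and Cbl, a ubiquitin ligase, at 0.73. The NF-kB list had 2 positive of 3, against 80.6%, and Traf1 had 0.57, Cflar had 0.55 and Bcl3 had -0.61.

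The list of AP-1, CREB and immediate early genes, which holds both constitutive and rapidly induced factors, had 6 positive and 2 negative regions. Egr1 had 1.57, Jun had 1.27, Atf2 had 1.04, Jund had 0.65 and Egr2 had 0.48, while Fosl2 had -0.65. Nr4a1, which encodes the receptor Nur77, had 1.08 at 1 of its starts and -0.68 at another, at nearly equal GC, 66.8% and 67%. The median GC of the list was 66.8%, and upstream regions weighted to its GC classes were 56.0% positive.

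Housekeeping lists lay on either side of the share of upstream regions weighted to their GC classes, in few regions each. All 7 regions of cytosolic ribosomal protein genes were positive, against a weighted share of 89.3%, with a median effect of 0.785 and Rps2 lowest at 0.66, and 5 of the 7 held the ETS consensus, against 18.8% of all upstream regions. Splicing factors had 8 positive of 9, against 84.9%, with Snrnp70 highest at 1.15 and Srsf9 lowest at -0.84. The 3 genes of endoplasmic reticulum stress were positive, against 88.1%, with Sdf2l1 at 1.15, Manf at 0.79 and Xbp1 at 0.61. Respiratory chain genes had 3 positive of 4, against 94.0%, from Ndufv2 at 0.80 to Ndufs7 at -0.83, which had 54.97% GC. The RNA polymerase II list had 5 positive of 8, against 69.0%, with Polr2g highest and Taf4, a subunit of TFIID, lowest at -1.44, and 6 of the 8 held the ETS consensus.

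Cell cycle genes had 4 positive regions of 6 (66.7%), near the 70.3% of all upstream regions and the 64.9% at their GC classes. Cdk6, a kinase of G1 phase, had 1.29, E2f3 had 0.91, Cdt1, which licenses replication origins, had 0.90 and Mcm5, a helicase subunit, had 0.55. Ccne2, cyclin E2, had -1.18 with 75.2% GC, and Rb1, the retinoblastoma protein, had -1.53 with 68.1% GC. The E2F consensus was found in 4 of the 6, against 5.46% of all upstream regions. It stood in positive regions (E2f3 and Mcm5) as well as in negative ones (Ccne2 and Rb1).

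Genes of Polycomb and Trithorax complexes and DNA methylation went the other way. Of their 18 upstream regions, from 14 genes, 4 were positive and 14 negative (22.2% positive, 9.0% to 45.2%), with a median effect of -0.96 against 0.70 for all upstream regions. Their median GC was 67.7%, and upstream regions weighted to the same GC classes were 47.2% positive. The interval counted regions of 1 gene, such as the 3 of Kmt2d, as separate. Below Phc1 at -3.60 in size came Dnmt3a, a DNA methyltransferase, at -1.92 and -0.78, Kmt2a, a histone H3K4 methyltransferase, at -1.85, Tet3, which oxidises methylated cytosine, at -1.84, and Kmt2d, a further H3K4 methyltransferase, with 3 regions at -1.81, -0.92 and -0.89. The Polycomb genes Phc2, Jarid2 and Bmi1 had -1.30, -1.001 and -0.88, Kdm2a, which binds unmethylated CpG, had -1.05, and Setd1a and Ash2l had -1.39 and -0.74. The positive regions were those of Kmt2e at 1.67, Mbd3 at 1.13, Kmt2a at 0.63 and Setd1b at 0.62. Downstream regions of the same list were positive in 3 of 9, with a median effect of -1.02. Over all 12 lists together, 63 of 88 regions were positive (71.6%, 61.4% to 80.0%), close to the share of all upstream regions.

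**Figure D3:**
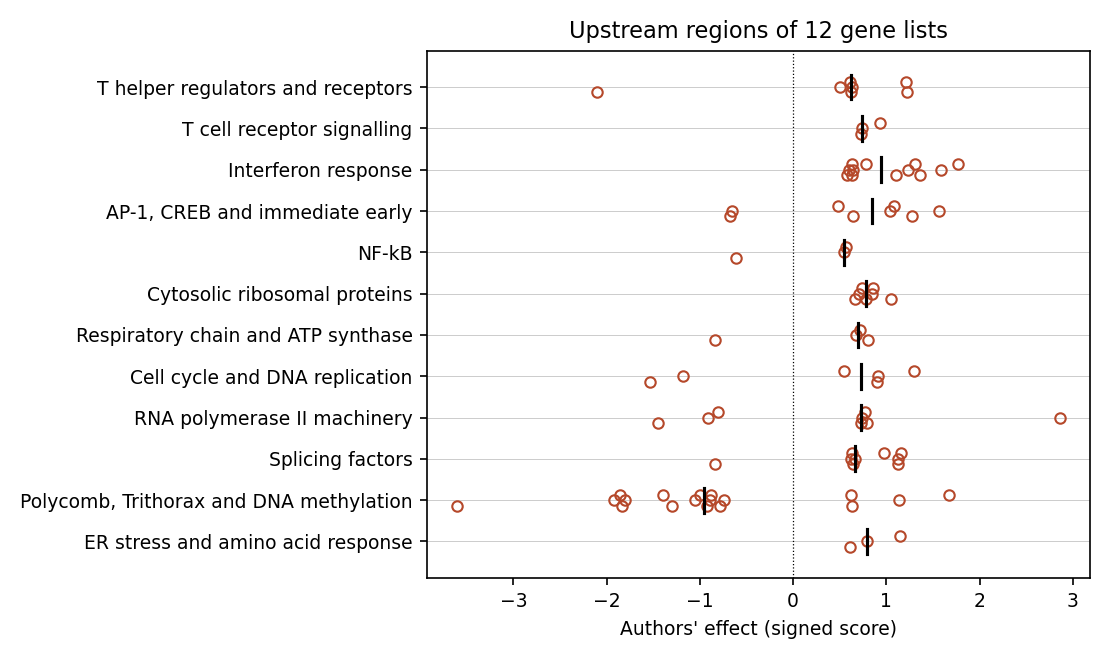
The authors' effect (signed score) of each upstream region of 12 gene lists, 1 circle per region, with a black bar at the median of the list. All 12 interferon regions and all 7 ribosomal protein regions lie above 0, and 14 of 18 regions of the Polycomb, Trithorax and DNA methylation list lie below it.

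Consensus sequences of 24 factors were searched on both strands of each region. They were GAAANNGAA for IRF, GAANNTTC for HSF, ATGCAAAT for octamer factors (OCT), TGTGGTT for RUNX, AGATAAG for GATA, CCAATNAG for NFY, CCGGAAG for ETS, TGANTCA for AP-1, TTCNNNGAA for STAT, GGGGCGGGG for SP, CACGTG for E-box factors and TGACGTCA for CRE. The rest were GCGCATGCG for NRF1, AAGATGGCG for YY1, TTTCCCGC for E2F, TGGAAAA for NFAT, GGANTTTCC for NF-kB, AGGTGTGA for T-box factors, TATAAA for the TATA box, GTTGCCATG for RFX, ACTACAATT for GFY, TCTCGCGAG for ZBTB33, TGATGCAAT for ATF4 and CCATATTAG for SRF. In 49 upstream regions (3.57%) matches of different consensus sequences overlapped. A match is a description of these letters and not a binding site.

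Several were found in a larger share of positive than of negative upstream regions. NFY was in 20.8% of positive regions (18.4% to 23.5%) and 9.80% of negative regions (7.28% to 13.1%), ETS in 21.7% (19.2% to 24.4%) and 12.01% (9.21% to 15.5%), and IRF in 16.7% (14.5% to 19.2%) and 5.88% (3.98% to 8.60%). HSF was in 16.3% of positive and 5.88% of negative regions, RUNX in 10.5% and 4.17%, AP-1 in 16.1% and 9.56%, STAT in 15.3% and 9.07%, and the octamer in 3.21% and 0.98%. SP went the other way, with 35.8% of positive (32.8% to 38.8%) and 47.6% of negative regions (42.8% to 52.4%). CRE was in 3.94% and 4.66%, NRF1 in 3.21% and 3.43%, YY1 in 3.63% and 4.17%, and E2F in 5.60% and 5.15%, all with overlapping intervals.

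**Figure D4:**
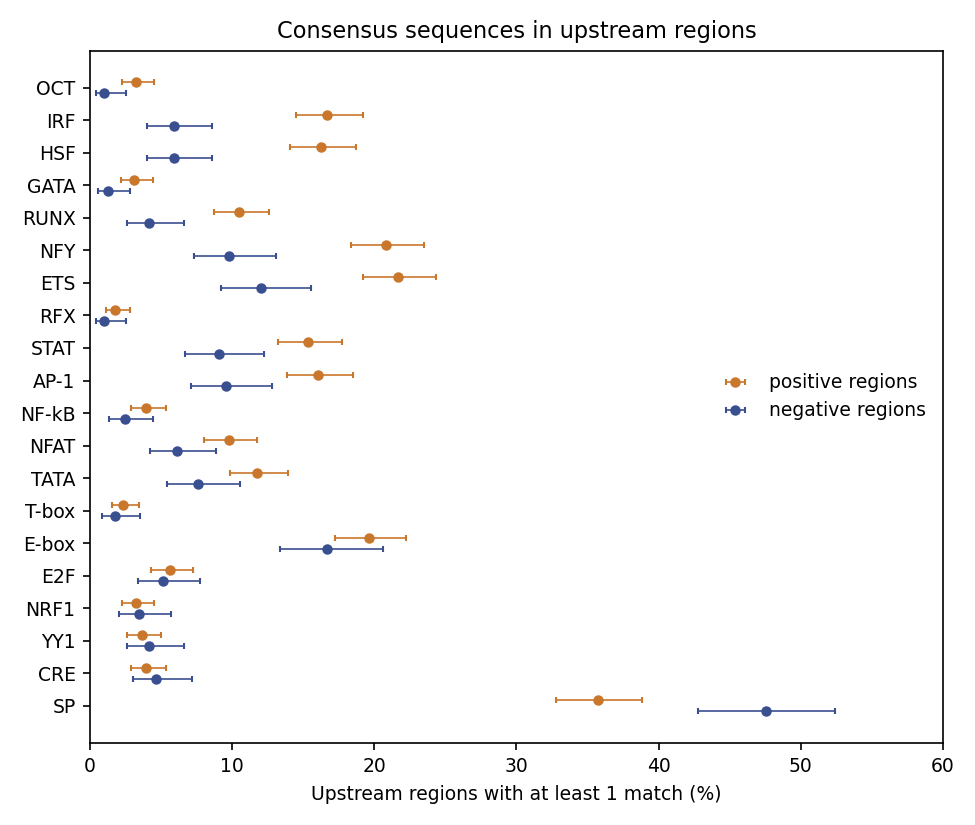
Share of upstream regions (%) with at least 1 match to each consensus found in 20 or more of them, in 965 positive regions and 408 negative regions, with 95% Wilson intervals over regions. NFY (20.8% in positive and 9.80% in negative regions), ETS, IRF, HSF and RUNX stand higher in positive regions, and SP (35.8% in positive and 47.6% in negative regions) stands lower.

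Since negative regions were richer in GC, the shares were set side by side at 60% to 70% GC, in 477 positive and 207 negative regions. NFY was then in 21.0% of positive and 11.1% of negative regions, ETS in 26.6% and 13.5%, HSF in 13.6% and 6.28%, and the E-box in 25.6% and 17.4%. The gap was smaller for IRF, with 12.4% of positive and 9.18% of negative regions, RUNX, with 7.97% and 6.76%, and AP-1, with 12.8% and 11.6%. STAT stood at 11.5% of positive and 13.04% of negative regions there, and SP at 46.5% and 48.8%. Within this GC range the gap for NFY was thus close to that over all regions, the gap for ETS was wider and the gap for HSF narrower. Positive regions were still lower in GC than negative ones there. The medians were 64.1% against 67.44% in regions that contained the start, and 63.05% against 65.69% in those that ended before it.

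Positions within the regions differed between factors. NFY matches in positive regions had a median position 195 bp upstream of the start, and 46.3% lay within 200 bp of it. ETS matches in positive regions had a median 133 bp upstream, with 26.9% past the start, while those in negative regions had a median of 264.5 bp upstream. Most YY1 matches lay past the start, 55.3% in positive and 64.7% in negative regions, and AP-1 matches lay far out, at a median of 440 bp upstream in positive regions.

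Set against all genes, the central 200 bp of upstream regions were compared with 200 bp windows centred 221 bp upstream of 18555 genes. SP was in 15.7% of upstream regions and 4.10% of gene windows, NFY in 7.07% and 2.79%, ETS in 6.41% and 2.42%, CRE in 1.75% and 0.44%, and E2F in 1.46% and 0.63%. IRF stood at 4.59% of upstream regions and 6.55% of gene windows, STAT at 4.37% and 6.17%, AP-1 at 3.86% and 4.90%, and the TATA box at 3.13% and 9.66%. The gene windows were not matched to the upstream regions for GC. GC upstream of the outermost start was under 45% in 6771 of the 18555 genes. Among upstream regions it was under 45% in 28 of 1373. The part of base composition in these differences was not tested. Over whole regions, AP-1 was in 14.1% of upstream and 31.9% of distal regions, RUNX in 8.59% and 14.8%, NFY in 17.6% and 7.10%, and SP in 39.3% and 5.87%. Distal regions were narrower, with a median of 450 bp, and lower in GC, at a median of 50.55% against 63.09%.

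Both sides of the start were listed in 165 genes, each represented by its region of largest absolute effect on each side. Both regions were positive in 49 genes and negative in 86, so that 135 genes (81.8%) had the same sign on each side. In 22 genes the upstream region was positive and the downstream region negative, and in 8 the reverse. In 28 of these 30 the positive region had the lower GC. The upstream effect was the higher in 94 genes (57.0%), with a median of -0.80 upstream and -0.89 downstream, and the median difference was 0.06. In 83 genes both regions were assigned to the same start.

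Tagap1 had the largest excess upstream, with 6.40 upstream and 2.46 downstream, and Fgfr1op followed with 6.23 upstream and 2.88 downstream, both in multi-copy regions. Sirt1, an NAD-dependent deacetylase, had 0.90 upstream at 52.4% GC and -1.91 downstream at 73.0% GC, and these regions belonged to different starts. Micall1, which acts in endosome recycling, had 0.82 upstream and -1.87 downstream of the same start. Epc1, a subunit of the NuA4 acetyltransferase, had 0.84 upstream and -1.74 downstream, at different starts. In the other direction Smurf1, a ubiquitin ligase, had -1.73 upstream and 0.74 downstream, Slc4a4, a bicarbonate cotransporter, had -1.55 and 0.73, and Ecpas, a proteasome adaptor, had -1.44 and 0.80. St6galnac6, a sialyltransferase, had -1.04 upstream and 0.77 downstream, and Ythdf1, a reader of N6-methyladenosine, had -1.02 and 0.63. In each of these 5 genes GC was higher upstream than downstream. The regions of Fgfr1op, Smurf1, Slc4a4 and St6galnac6 also belonged to different starts.

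**Figure D5:**
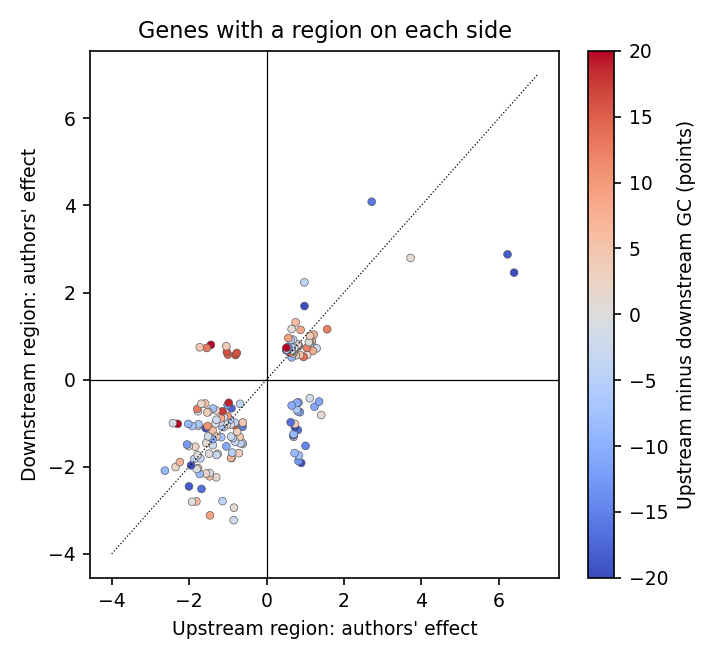
Effect of the upstream region (x axis) against effect of the downstream region (y axis), both the authors' signed score, in 165 genes with a region on each side. Colour gives upstream minus downstream GC in percentage points, and the dotted line marks equal effects. Most genes lie in the quadrants of equal sign, 49 with both regions positive and 86 with both negative.

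Several upstream regions of 1 gene could also differ. Of 49 genes with 2 or more, 8 had regions of both signs, and in 7 of these GC was lower in the positive region. In Kmt2a, -1.85 was found 154 bp upstream at 74.8% GC and 0.63 was found 717 bp upstream at 60.4% GC. In L3mbtl3, a reader of methylated lysine, the values belonged to different starts. They were -0.81 at 257 bp with 74.7% GC and 0.64 at 878 bp with 54.96% GC. In Bcr, known from the BCR-ABL fusion, they were -0.60 at 129 bp with 67.5% GC and 0.59 at 867 bp with 51.3% GC. Kansl1, a subunit of the NSL acetyltransferase complex, was the exception, with 1.09 at 67.5% GC and -1.05 at 63.9% GC. Its regions also belonged to different starts.

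The positive share was higher with the centre in an exon than with the centre in intergenic DNA. The centre was intergenic in 927 upstream regions, of which 68.5% were positive (65.4% to 71.4%), in an intron in 257, of which 70.8% were positive (64.99% to 76.0%), and in an exon in 189, of which 78.3% were positive (71.9% to 83.6%). A further start of the same gene lay upstream in 228, and 67.1% of these were positive (60.8% to 72.9%), against 70.9% (68.2% to 73.5%) of the other 1145. A start of a gene that is not protein-coding lay within 1000 bp in 256, of which 73.4% were positive (67.7% to 78.5%), against 69.6% of the other 1117. By width, 66.0% were positive under 300 bp (58.3% to 73.0%) and 72.6% at 900 bp or more (68.5% to 76.5%).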

How the data were processed

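Values came from 1 deposited table of regions on mm10, made from both output libraries. Per region, the table as deposited holds a score, the authors' signed effect, and an adjusted p-value. Which aligner, caller or normalization was used was not given in the sources used here. No per-sample column was left unmapped (0). Starts were those of protein-coding transcripts in the basic GENCODE annotation, and sequence was GRCm38. The 367 regions on X, Y and other scaffolds were left out.

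GC content, CpG observed over expected (count of CG times length over the product of C and G counts), consensus matches and distances were computed in Python 3.11.15 (numpy 2.4.6, pandas 2.3.3, pysam 0.24.0) and samtools 1.23.1. Copies were counted with minimap2 2.31 (k = 19, w = 10, N = 50, p = 0.5) over 300 bp around the centre. Class assignment and consensus searches were tested on simulated data, with 100% of 1000 regions and 480 planted sequences found.

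The members, lists and consensus sequences were chosen with earlier results of these data known. Genes named were the 10 highest and 10 lowest effects in single-copy, at most 50% soft-masked regions, the ends of each list and the 5 largest differences each way between sides. Other list members, multi-copy, histone, heat shock and mixed-sign genes and the interferon sequences were added after the values were seen. Some genes and a sequence that the rule named are not reported here. Depth is unknown, so precision rests on the authors' p-value. The alternatives were a stricter adjusted p of 0.001, copies, masking, distance, the start, width, annotation and GC classes.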

Additional observations from a re-analysis of the deposited data

How the results depend on the processing

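Of 47 recomputed values, 36 stayed within the counting interval of the value reported (within 1.5 times for the count of consensus sequences), 11 moved past it and 0 changed direction. With an adjusted p under 0.001 the positive share was 66.4% and the median effect 0.78. In regions without the start the share was 66.5%, the median effect 0.62, and the upstream minus downstream difference 16.8 points, with the upstream effect the higher in 65% of 40 genes. With centres over 250 bp away the median effect was 0.67 and the difference 11.5 points. The distances of 400 to 1000 bp and 100 to 400 bp were chosen after seeing the data, and gave 18.2 and 0.99 points, with 5.47 points within GC classes at the longer distance. The cause of these moves was not tested. These intervals are wide for the differences. The upstream minus downstream difference was 2.49 points at up to 500 bp in place of 5.09, and 3.59 points within CpG classes in place of 1.84 within GC classes. In the central 200 bp, 9 consensus sequences in place of 13 found in 20 or more regions had shares at least 1.5 times higher in positive than in negative regions. These 9 included CRE, at 2.07% of positive and 0.98% of negative regions. Over whole regions CRE stood at 3.94% and 4.66%. The scale and sign of the effect are not stated, and regions below the authors' threshold were not used here. No paired analysis was possible because both libraries formed 1 group and were combined in 1 table, and for the same reason leaving out a replicate was not possible.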
